A study of Mus musculus with 18 samples.

Results

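Liver messenger RNA was compared between mice on a high-fat diet and mice on a low-fat diet, where both groups were also under caloric restriction. The comparison used the 3 HF+CR libraries against the 3 LF+CR libraries, 6 of the 18 libraries of the series, across the 10356 genes of 23521 that reached 1 RPKM in at least 3 of the 18 libraries. RPKM are read counts scaled by the length of the transcript and by the mapped reads of the library. The abbreviations of the labels were read as HF, high-fat diet, LF, low-fat diet, CR, caloric restriction, and Ex, exercise. All groups were wild-type C57BL/6J mice, a standard inbred laboratory strain. Their treatment began at 5 weeks of age and the livers were taken at 62 weeks. The groups were HF+CR, HF+Ex, HF, LF+CR, LF+Ex and LF, with 3 libraries each. The labels give no diet composition, degree of restriction or sex, and do not say whether each library came from 1 animal. The p-values therefore measure only the spread between these samples. In whole liver, fewer cells of a type and less RNA per cell cannot be told apart.

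The mouse liver is strongly sex-biased. In males the pituitary releases growth hormone in pulses that activate the transcription factor STAT5 intermittently, and genes for major urinary proteins and several P450 enzymes and transporters are high. Near-continuous growth hormone in females favours another set of P450 enzymes, flavin monooxygenases and transporters, in part through the transcription factor CUX2. The liver also sets its lipid and sugar enzymes by nutrition: insulin and dietary carbohydrate raise lipogenic enzymes through SREBP-1c and ChREBP, while SREBP-2 answers to cholesterol.

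The 6 libraries carried Y-linked transcripts and almost no Xist, the RNA of the inactive X chromosome. Ddx3y, a Y-linked RNA helicase gene, was at 9.53 to 10.9 RPKM in HF+CR livers and 7.46 to 9.42 RPKM in LF+CR livers, and Xist was at most 0.0005 RPKM in any of them. Ttr, a hepatocyte marker and thyroid hormone carrier of plasma, stood at 5265 to 6951 RPKM in HF+CR livers. It stood at 6382 to 7194 RPKM in LF+CR livers. Alb, another hepatocyte marker, was listed at 0 in all 6 libraries, so a listed 0 in these files need not mean absence. Of the 13 hepatocyte markers tested, 3 were called higher and 5 lower in HF+CR livers by the test described below. Among all genes tested, 4.7% were higher and 5.08% lower. Without the pancreas-carrying libraries defined below, 0 hepatocyte markers were called higher and 1 lower. Pearson's r of log2(RPKM + 1) was 0.952 to 0.983 among HF+CR libraries, 0.976 to 0.989 among LF+CR libraries and 0.935 to 0.965 between the groups. Estimated depth was 24100000 to 41500000 fragments in the 6 libraries, from the spacing of low RPKM values. Genes of other cell types differed in 3 libraries. Summed RPKM of 26 pancreatic acinar markers was 459, 38.6 and 8.30 in HF+CR livers and 2781, 5.04 and 9.74 in LF+CR livers; 6 of the 26 were at 0 in every HF+CR library and 3 in every LF+CR library. HF+CR replicate 3 stood apart: its stellate cell and matrix markers summed to 375 RPKM, against 178 and 193 RPKM in the other HF+CR libraries and 167 to 188 RPKM in LF+CR livers. Its lymphocyte markers summed to 36.2 RPKM, against 8.23 and 9.28 RPKM in the other HF+CR libraries and 4.81 to 6.51 RPKM in LF+CR livers. Over 16 bile duct markers, the mean log2(RPKM + 1) of HF+CR replicate 3 lay 0.675 above that of the 18 libraries, against at most 0.234 above it in the other 5 libraries. Their summed RPKM, to which the abundant Pigr adds most, was 571 in that library, against 648 and 628 in the other HF+CR libraries and 488 to 519.6 in LF+CR livers. The part of these cells' RNA in the results was not tested; counts without those libraries are given below.

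**Figure D1:**
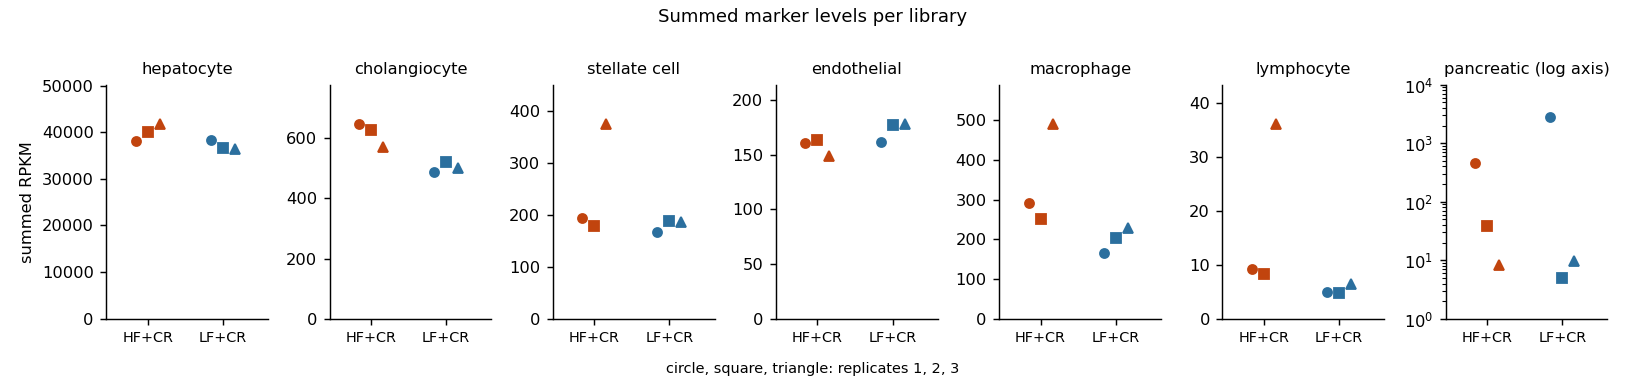
Summed RPKM of marker genes of 7 cell types in each HF+CR library (left, red) and LF+CR library (right, blue), on linear axes except for pancreatic markers. The pancreatic sum is high in HF+CR replicate 1 (459 RPKM) and LF+CR replicate 1 (2781 RPKM), and HF+CR replicate 3 is the highest for stellate cell (375 RPKM), macrophage (492 RPKM) and lymphocyte (36.2 RPKM) markers.

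Between HF+CR and LF+CR livers, 1013 of 10356 genes passed the test, 9.78% of those tested: 487 were higher in HF+CR (4.7%) and 526 lower (5.08%). The test was limma's moderated test on log2(RPKM + 1) with Benjamini-Hochberg adjusted p-values, called below 0.05, and differences below are on that scale, which understates the change of low genes. Of these, 156 were higher and 120 lower by at least 2-fold of RPKM + 1. The groups did not overlap in 997 of the 1013 called genes, and in 31.3% of all genes tested. The median difference of all genes was -0.0034. Male-biased liver genes and terminal complement components led the genes that rose, and female-biased P450 and transporter genes led those that fell. Of the members tested, 8 of 28 lipogenic, 10 of 37 glucose and 22 of 76 respiratory chain genes fell and 14 of 44 interferon-induced genes rose; without the pancreas-carrying libraries defined below the counts were 1, 1, 0 and 2. The count depended on single libraries: it was 482 without LF+CR replicate 1, 613 without LF+CR replicate 2, 430 without HF+CR replicate 1, 638 without HF+CR replicate 2, and 131, of which 129 were among the 1013, without the 3 libraries with the highest pancreatic sums (HF+CR replicate 1, LF+CR replicate 1 and LF+Ex replicate 1). It was 1397 without HF+CR replicate 3 and LF replicate 2, the libraries high for bile duct markers. Of the 98 named genes that were called, 39 remained called without the 3 pancreas-carrying libraries and 92 without the 2 libraries high for bile duct markers. An unadjusted p under 0.05 was reached by 26.3% of the 10356 genes. It was reached by 1508 of them without the pancreas-carrying libraries and by 2500 in the 6 libraries alone.

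**Figure D2:**
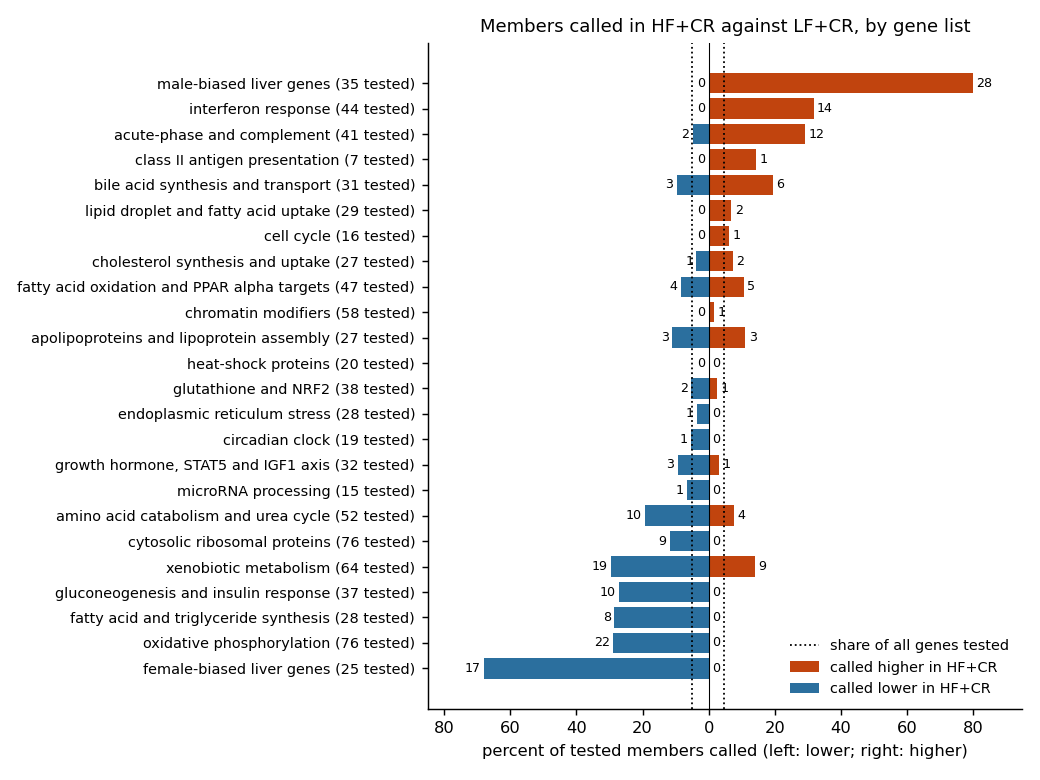
Percent of tested members of each gene list called lower (left, blue) or higher (right, red) in HF+CR against LF+CR livers, with the number called beside each bar and dotted lines at the shares of all genes tested, 5.08% lower and 4.7% higher. Male-biased genes (28 of 35 higher) and female-biased genes (17 of 25 lower) lie farthest from those lines.

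Male-biased liver genes were higher in HF+CR livers: 28 of the 35 tested members of a list of 47 rose and 0 fell, with a median difference of 2.97. Of all genes tested, 4.7% rose. C8a, the alpha chain of complement component 8, was at 193, 160 and 161 RPKM in HF+CR livers and 3.13, 8.95 and 8.33 RPKM in LF+CR livers. Its difference of 4.56 ± 0.30 (SE) had an adjusted p of 7.64e-07. Mup20, the urinary pheromone darcin, was at 6523, 2497 and 5720.2 RPKM in HF+CR livers, against 151, 498 and 242 RPKM in LF+CR livers, with a difference of 4.10 ± 0.44 and an adjusted p of 7.7e-05. For both genes every HF+CR library lay above every LF+CR library, with no overlap.

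Serpina1e, an alpha-1-antitrypsin paralog and serine protease inhibitor of plasma, showed the largest rise, 8.14 ± 0.97 (adjusted p = 0.000166). It was at 4512, 1488 and 1413 RPKM in HF+CR livers and 3.68, 3.96 and 17.04 RPKM in LF+CR livers. Cyp4a12a, a fatty acid omega-hydroxylase, was at 30.9, 71.3 and 27.4 RPKM in HF+CR livers and 0.120, 4.54 and 1.59 RPKM in LF+CR livers, a difference of 3.997 ± 0.54 (adjusted p = 0.000404). Beside C8a, 3 further genes of the complement pore rose: C6 by 3.50 ± 0.36, C8b by 2.73 ± 0.36 and C9 by 2.24 ± 0.27, with adjusted p-values of 6.85e-05, 0.000315 and 0.000187 in that order. Hc, which encodes C5, was called at 0.43 ± 0.12 (adjusted p = 0.0291), but not without LF+CR replicate 1 (0.0819), 2 (0.0785) or 3 (0.0637) or HF+CR replicate 1 (0.14), and C8g, the C8 gamma chain, was not called (0.05 ± 0.14, adjusted p = 0.835). Hc and C8g were added after their values were seen. C6 was at 91.8, 59.6 and 60.1 RPKM in HF+CR livers and 2.73, 6.79 and 7.19 RPKM in LF+CR livers.

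A few male-biased genes rose with a wide spread among the HF+CR livers. Slco1a1, an organic anion transporter, was at 92.9, 85.1 and 10.5 RPKM in HF+CR livers and 0.122, 0.159 and 0.204 RPKM in LF+CR livers, a difference of 5.29 ± 0.80 (adjusted p = 0.000918). Elovl3, an elongase of very long fatty acids, was at 131, 73.9 and 9.91 RPKM in HF+CR livers and 0.911, 1.22 and 1.52 RPKM in LF+CR livers. In both, HF+CR replicate 3, the library with high matrix and lymphocyte markers, was several-fold below the other 2 HF+CR libraries and still above all LF+CR libraries. Hsd3b5, a steroid reductase of the 3-beta-hydroxysteroid dehydrogenase family, was at 202 and 152 RPKM in HF+CR replicates 1 and 2, at 1.02 RPKM in replicate 3, and at 0, 0.0143 and 0 RPKM in LF+CR livers (adjusted p = 0.0191). The call of Hsd3b5 was lost without any one of HF+CR replicates 1 and 2 and LF+CR replicates 1 and 2, with adjusted p-values of 0.104, 0.0843, 0.0612 and 0.0568 in that order.

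Among the Mup genes, which encode pheromone-carrying urinary proteins and share much of their sequence, Mup1, Mup11, Mup12, Mup14 and Mup21 rose beside Mup20, with differences of 3.55 to 5.95. Mup1 was at 1097, 239.5 and 12.3 RPKM in HF+CR livers and 0.479, 0.162 and 7.76 RPKM in LF+CR livers. Mup12 was at 352, 67.4 and 2.34 RPKM in HF+CR livers, against 0.133, 0 and 1.79 RPKM in LF+CR livers. Reads of these near-identical genes can be split arbitrarily, so the values of single members are uncertain; the same holds for Serpina1e, Cyp4a12a and the Cyp2a, Cyp2b, Cyp2c, Acot and Slc22a genes below. Mup1, Mup12 and Mup14 were no longer called without HF+CR replicate 1 (adjusted p of 0.0637, 0.101 and 0.123), or without LF+CR replicate 1 (0.0517, 0.0732 and 0.0923) or 2 (0.0503, 0.0729 and 0.0817), and Mup12 was also lost without HF+CR replicate 2 (0.0697). Without the 3 pancreas-carrying libraries 11 male-biased genes were called higher, and 31 without the libraries high for bile duct markers.

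**Figure D3:**
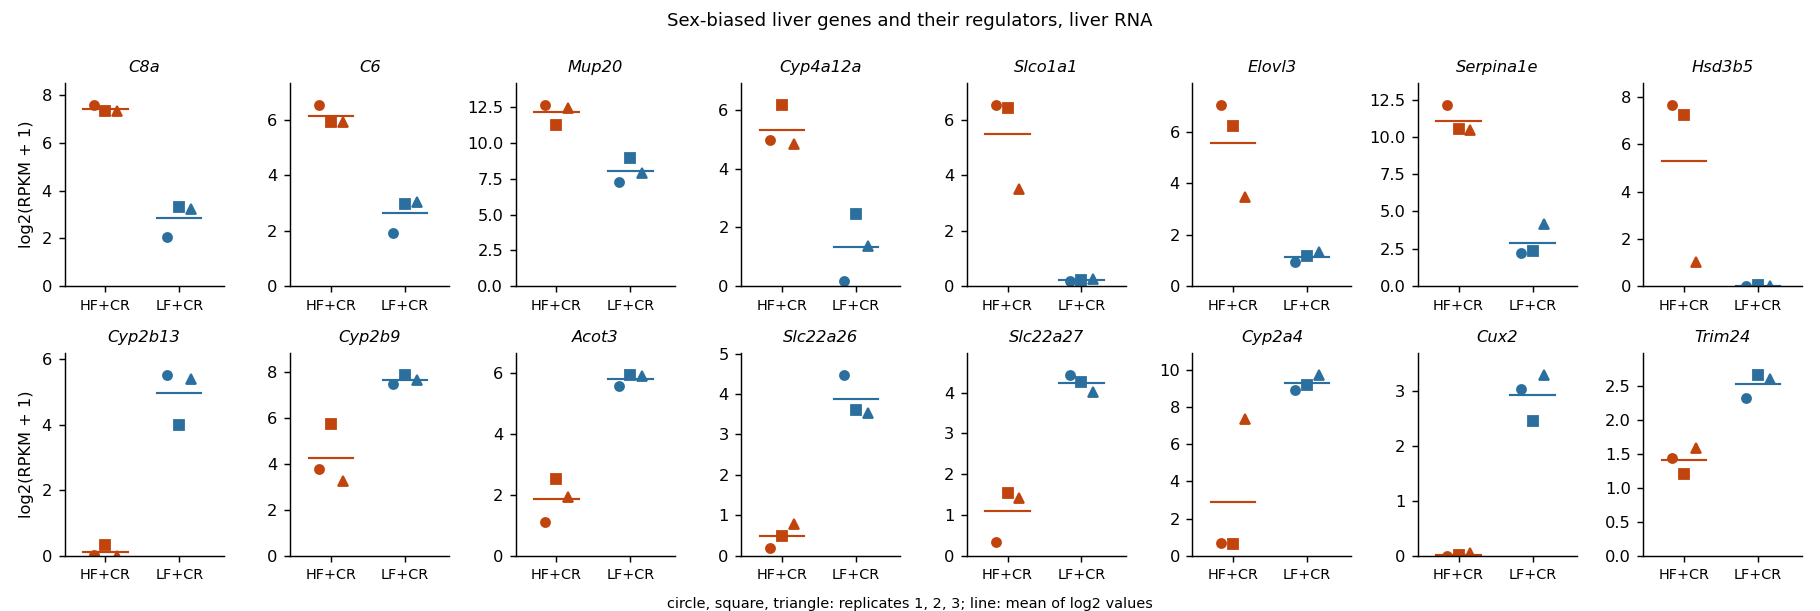
RPKM on the log2(RPKM + 1) scale of 8 male-biased genes (top) and of 6 female-biased genes with the regulators Cux2 and Trim24 (bottom) in each HF+CR library (left, red) and LF+CR library (right, blue), with the mean of the log2 values as a line. The groups do not overlap in any of the 16 panels, and HF+CR replicate 3 (triangle) lies nearest to the LF+CR livers for Slco1a1, Elovl3, Hsd3b5 and Cyp2a4.

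Female-biased liver genes fell in HF+CR livers: 17 of the 25 tested members of a list of 35 were lower and 0 higher, with a median difference of -2.08. In all genes tested, 5.08% fell. Members low in the other groups, such as Cux2, passed the filter on low values only through their LF+CR livers, which favours calls of lower genes. Cyp2b13, a phenobarbital-class P450 that is high in female liver, was at 0.0205, 0.254 and 0 RPKM in HF+CR livers and 44.9, 14.96 and 40.7 RPKM in LF+CR livers, a difference of -4.85 ± 0.40 (adjusted p = 7.63e-06). It was near 0 in every HF+CR liver and present in every LF+CR liver.

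Slc22a26 and Slc22a27, members of the organic anion transporter family, were lower by 3.40 and 3.15 on the log2 scale. Slc22a26 was at 0.133, 0.395 and 0.709 RPKM in HF+CR livers and 21.3, 11.3 and 10.5 RPKM in LF+CR livers (adjusted p = 1.57e-06). Cyp2b9 was at 12.6, 52.2 and 8.52 RPKM in HF+CR livers and 174, 234 and 200.1 RPKM in LF+CR livers, a difference of -3.41 ± 0.74 (adjusted p = 0.00989). Cyp2a4, a steroid hydroxylase, was at 0.577 and 0.555 RPKM in HF+CR replicates 1 and 2 but at 166 RPKM in replicate 3, and at 491, 597 and 871 RPKM in LF+CR livers (difference -6.42 ± 1.55, adjusted p = 0.0162). The calls of Cyp2b9 and Cyp2a4 were lost without HF+CR replicate 1 (adjusted p of 0.0504 and 0.0896), and that of Cyp2a4 also without replicate 2 (0.0748). Without the pancreas-carrying libraries, 12 female-biased genes were called lower.

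Of 32 genes of growth hormone signalling, 1 rose and 3 fell, where 4.7% of all genes rose and 5.08% fell. The median difference was 0.02. The 3 that fell were Cux2, Trim24 and Hnf4a. Cux2, a homeodomain factor that is female-specific in mouse liver and activates female-biased genes, was at 0, 0.0119 and 0.0282 RPKM in HF+CR livers, against 7.23, 4.45 and 8.82 RPKM in LF+CR livers, a difference of -2.91 ± 0.18 (adjusted p = 3.88e-07). It reached 1 RPKM in LF+CR livers only, so it was tested only because it was high there, and it is counted among the female-biased genes too. Trim24, a chromatin-binding coregulator, was at 1.71, 1.29 and 1.99 RPKM in HF+CR livers and 4.01, 5.36 and 5.05 RPKM in LF+CR livers. Hnf4a, a nuclear receptor that maintains hepatocyte identity, was at 125 to 129.6 RPKM in HF+CR livers and 178 to 191 RPKM in LF+CR livers, a difference of -0.52 ± 0.12 (adjusted p = 0.0149); this call was lost without LF+CR replicate 2, HF+CR replicate 1 or HF+CR replicate 2, at adjusted p-values of 0.0591, 0.0537 and 0.0503.

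Ghr, the growth hormone receptor, rose: it was at 88.9, 79.3 and 45.7 RPKM in HF+CR livers and 27.6, 40.2 and 38.6 RPKM in LF+CR livers (difference 0.95 ± 0.24, adjusted p = 0.0208). Its call was lost when its 2 transcript rows were summed (adjusted p = 0.116) and without LF+CR replicate 1 (0.104), HF+CR replicate 1 (0.109) or HF+CR replicate 2 (0.0791). Stat5b, the main STAT5 of liver, differed by -0.01 ± 0.13 (adjusted p = 0.958), with 7.09 to 8.59 RPKM in HF+CR livers and 7.03 to 9.54 RPKM in LF+CR livers. Bcl6, a repressor that occupies many STAT5 sites and is male-biased, was at 12.4, 5.42 and 9.38 RPKM in HF+CR livers and 4.495, 8.54 and 1.39 RPKM in LF+CR livers (adjusted p = 0.44). Igf1, the growth factor that growth hormone induces, was at 23.4 to 32.0 RPKM in HF+CR livers and 13.9 to 23.3 RPKM in LF+CR livers, a difference of 0.56 ± 0.21 that did not pass (adjusted p = 0.11).

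The 250 bases before the start of 3 of these genes are shown because C8a, Cyp2b13 and Slc22a26 had among the smallest adjusted p-values both here and in the tests against the other diet contrasts below; sequences are from RefSeq on GRCm38.p6, the build that mm10 names, each read 5′ to 3′ on the gene's strand. Capitals mark the STAT5 motif TTCNNNGAA, searched on both strands, on which it reads alike, in the 300-base window from 250 bases before to 50 bases after the start.
C8a, chr4:104876399-104876648, minus strand: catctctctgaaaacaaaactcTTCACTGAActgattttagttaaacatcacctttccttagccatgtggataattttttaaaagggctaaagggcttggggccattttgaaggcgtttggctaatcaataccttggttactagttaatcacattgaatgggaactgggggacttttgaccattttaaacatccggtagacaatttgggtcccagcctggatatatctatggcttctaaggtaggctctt
Slc22a26, chr19:7802668-7802917, minus strand: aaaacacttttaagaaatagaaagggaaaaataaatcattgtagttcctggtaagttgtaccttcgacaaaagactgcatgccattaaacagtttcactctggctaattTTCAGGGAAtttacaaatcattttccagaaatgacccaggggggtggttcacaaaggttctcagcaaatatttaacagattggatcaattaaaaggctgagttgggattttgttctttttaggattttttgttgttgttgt
Cyp2b13, chr7:26061245-26061494, plus strand: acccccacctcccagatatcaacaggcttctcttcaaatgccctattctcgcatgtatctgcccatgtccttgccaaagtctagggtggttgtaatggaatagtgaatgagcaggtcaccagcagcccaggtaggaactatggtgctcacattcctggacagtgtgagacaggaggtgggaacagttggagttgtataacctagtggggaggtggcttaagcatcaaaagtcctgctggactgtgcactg
C8a and Slc22a26 each hold 1 match, whose first base lies 228 and 141 bases before the start; these letters are not in the window of Cyp2b13, nor in either of the 2 windows of Cux2, which are not shown. The motif was in the windows of 2 of 17 male-biased genes that rose (11.8%), of 3 of 16 female-biased genes that fell (18.8%) and of 9.55% of all 27025 genes with a window. It was in 8.12% of the 8278 tested genes with a window, in 3 of 23 male-biased genes tested (13%) and in 4 of 21 female-biased genes tested (19%). A window was at hand for 17 of the 28 male-biased genes that rose and for 16 of the 17 female-biased genes that fell. The SREBP motif TCACNCCAC, searched on both strands, was in 1.44% of all windows and in 0 of the 7 windows of lipogenic genes that fell. A match is a run of letters and not a binding site.

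The diet difference under CR differed from that in mice with neither CR nor exercise, tested as (HF+CR minus LF+CR) minus (HF minus LF), in 106 genes (1.02% of those tested), 60 with a positive (0.579%) and 46 with a negative value (0.444%). It differed from the diet difference under exercise in 248 genes (2.39%), 139 with a positive (1.34%) and 109 with a negative value (1.05%). These tests share the HF+CR and LF+CR livers with the comparison above. The 106 became 45, 211, 64, 53 and 60 without HF+CR replicate 1, HF+CR replicate 3, LF+CR replicate 1, HF replicate 2 and HF replicate 3 in that order. The 248 became 131, 567, 164, 146 and 137 without HF+CR replicate 1, HF+CR replicate 3, LF+CR replicate 1, HF+Ex replicate 3 and LF+Ex replicate 1. Of the 35 male-biased genes tested, 13 passed the test against HF minus LF with a positive value and 0 with a negative value. Against HF+Ex minus LF+Ex, 28 passed with a positive value and 0 with a negative value. Of the 25 female-biased genes tested, 0 passed with a positive and 10 with a negative value against HF minus LF. Against HF+Ex minus LF+Ex, 1 passed with a positive and 16 with a negative value. The median diet difference of the male-biased genes was 2.97 under CR, -1.56 under exercise and -0.13 with neither.

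Cyp2b13 ran in opposite directions. It was at 5.24, 17.5 and 12.8 RPKM in HF livers and 0.481, 0.785 and 0.0478 RPKM in LF livers, and at 14.3, 7.12 and 9.86 RPKM in HF+Ex livers and 0, 0 and 0.147 RPKM in LF+Ex livers. The diet difference of Cyp2b13 was 3.06 ± 0.40 with neither treatment (adjusted p = 0.014) and 3.40 ± 0.40 under exercise (adjusted p = 0.00194), against the -4.85 under CR given above. The difference of differences was -7.90 ± 0.57 (adjusted p = 4.3e-06) and -8.25 ± 0.57 (adjusted p = 2.35e-06) against exercise.

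C8a was at 131, 75.3 and 74.3 RPKM in HF livers, 96.9, 90.7 and 135 RPKM in LF livers, 88.7, 101 and 61.2 RPKM in HF+Ex livers and 182, 162 and 138 RPKM in LF+Ex livers. Of the 18 libraries, the 3 LF+CR livers alone were below 10 RPKM. The diet difference of C8a under CR exceeded that with neither treatment by 4.79 ± 0.43 (adjusted p = 5.01e-05) and that under exercise by 5.52 ± 0.43 (adjusted p = 7.06e-06). Cux2 was at most 0.462 RPKM in each of the 12 livers without CR, and its difference of differences was -2.64 ± 0.25 (adjusted p = 6.57e-05) and -2.87 ± 0.25 against exercise (adjusted p = 2.08e-05). As it passed the filter only through the LF+CR livers, these tests of Cux2 are a description and not independent of that choice. Slc22a26 likewise stayed at or below 2.63 RPKM in those 12 livers, with values of -2.61 ± 0.35 and, against exercise, -3.86 ± 0.35. For C8a, Cux2 and Slc22a26 the LF+CR livers are thus the group that stands apart from the other 5.

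Fbxo21, a ubiquitin ligase subunit, gave opposite signs too: 39.98, 37.3 and 51.0 RPKM in HF+CR livers and 25.3, 30.7 and 28.0 RPKM in LF+CR livers, but 25.7 to 30.2 RPKM in HF livers and 45.5 to 52.9 RPKM in LF livers. Its difference of differences was 1.37 ± 0.17 (adjusted p = 0.00226). Clec2h, a lectin-like receptor, was at 4.93, 8.40 and 10.7 RPKM in HF+CR livers and at most 0.0582 RPKM in LF+CR livers, a difference of 3.08 ± 0.29 (adjusted p = 2.44e-05) that exceeded that with neither treatment by 2.94 ± 0.41. F11, coagulation factor XI, was at 39.9 to 48.9 RPKM in HF+CR livers and 8.43 to 15.2 RPKM in LF+CR livers, a difference of 1.89 ± 0.18 (adjusted p = 2.64e-05).

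**Figure D4:**
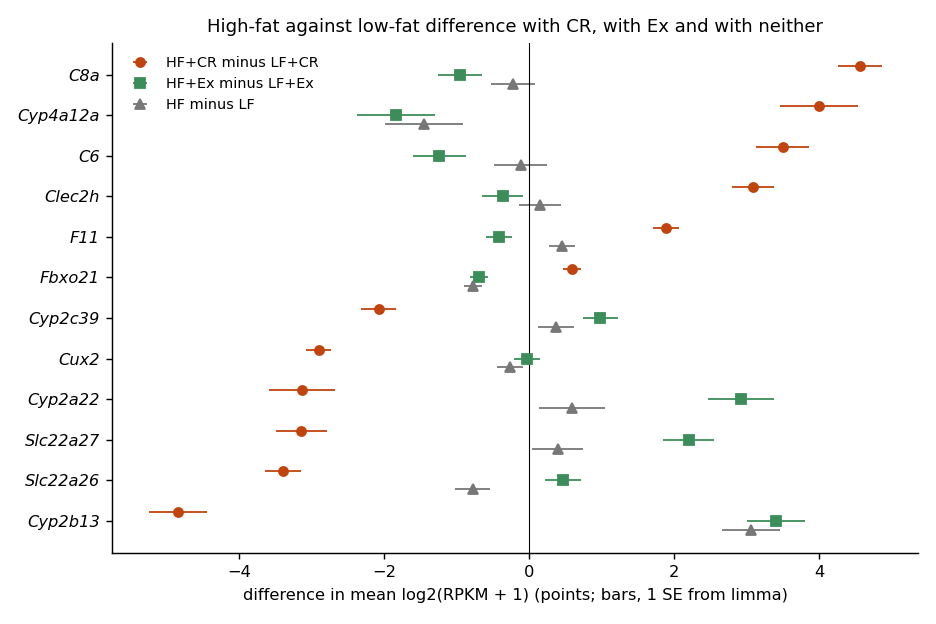
Difference in mean log2(RPKM + 1) between high-fat and low-fat livers under CR (red circles), under exercise (green squares) and with neither (grey triangles), with 1 standard error from limma, for the 12 genes named for the tests of differing diet effects. Under CR, C8a (4.56), Cyp4a12a (3.997) and C6 (3.50) lie to the right and Cyp2b13 (-4.85) to the left, while Cyp2b13 lies to the right with exercise (3.40) and with neither (3.06).

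Fatty acid and triglyceride synthesis genes were lower in HF+CR livers: 8 of 28 fell and 0 rose, where 5.08% of all genes fell, with a median difference of -0.26. Me1, the malic enzyme that supplies NADPH, was at 44.2, 76.6 and 37.4 RPKM in HF+CR livers and 279.8, 164 and 250.04 RPKM in LF+CR livers, a difference of -2.14 ± 0.29 (adjusted p = 0.00045). Scd1, the desaturase that makes oleate, was at 442, 712 and 703 RPKM in HF+CR livers and 3685, 2524 and 4619 RPKM in LF+CR livers, a difference of -2.53 ± 0.54 (adjusted p = 0.00825). Elovl6, an elongase of palmitate, was at 7.01, 14.6 and 9.92 RPKM in HF+CR livers and 74.5, 28.6 and 70.8 RPKM in LF+CR livers (difference -2.29 ± 0.38, adjusted p = 0.00187). Pnpla3, a lipid droplet hydrolase induced by feeding, was at 0.15, 0.509 and 0.0312 RPKM in HF+CR livers and 5.13, 1.10 and 4.30 RPKM in LF+CR livers. LF+CR replicate 2 was the lowest of its group for Me1, Scd1, Elovl6 and Pnpla3.

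Acaca, acetyl-CoA carboxylase, fell by 1.41 ± 0.27 (adjusted p = 0.00486), and Acly, ATP citrate lyase, by 1.04 ± 0.27 (adjusted p = 0.0259). Fasn, fatty acid synthase, was at 57.4, 83.7 and 46.6 RPKM in HF+CR livers and 308, 89.9 and 228 RPKM in LF+CR livers (difference -1.59 ± 0.47, adjusted p = 0.0448). The Fasn call was lost without any one of the 6 libraries except LF+CR replicate 2, with adjusted p-values of 0.126, 0.0565 and 0.102 without HF+CR replicates 1, 2 and 3, and 0.194 and 0.112 without LF+CR replicates 1 and 3; it also lay at 0.0503 to 0.0564 without HF replicate 1, 2 or 3, HF+Ex replicate 2, LF replicate 3 or LF+Ex replicate 3. Acly was lost without LF+CR replicate 1 (0.101) or 3 (0.0924) or HF+CR replicate 1 (0.0812) or 3 (0.0776). Without the pancreas-carrying libraries 1 lipogenic gene, Me1 among those named, was called lower.

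Sterol genes did not move one way. Of 27 genes of cholesterol synthesis and uptake, 2 rose (4.7% of all genes) and 1 fell, and the median difference was 0.28. Msmo1, a sterol C4-methyl oxidase, was at 98.9, 99.9 and 34.1 RPKM in HF+CR livers and 23.6, 23.9 and 28.8 RPKM in LF+CR livers (difference 1.43 ± 0.39, adjusted p = 0.0301). Mvk, mevalonate kinase, was at 17.5, 17.9 and 8.08 RPKM in HF+CR livers and 6.06 to 7.90 RPKM in LF+CR livers (adjusted p = 0.0468). HF+CR replicate 3 was the lowest HF+CR library for Msmo1, Mvk and Sqle, the squalene epoxidase, which was at 26.8, 32.6 and 5.94 RPKM in HF+CR livers and 8.04 to 14.8 RPKM in LF+CR livers. Sqle was not called (adjusted p = 0.381), but was at 1.37 (adjusted p = 0.0118) without that library. Calls of these genes rested on single libraries: Msmo1 and Mvk were not called without HF+CR replicate 1 (0.134 and 0.181), HF+CR replicate 2 (0.111 and 0.154), LF+CR replicate 1 (0.097 and 0.119) or LF+CR replicate 2 (0.0877 and 0.145), nor Mvk without LF+CR replicate 3 (0.0642). Mvk was at 0.0507 to 0.0594 without any HF or HF+Ex library or LF+Ex replicate 1 or 3. Without the libraries high for bile duct markers 8 sterol genes rose and 0 fell. Without the pancreas-carrying libraries limma called 0 sterol genes, with 5 at an unadjusted p under 0.05, as were 1508 of all 10356 genes. Insig1, an SREBP-2 target, differed by -0.12 ± 0.33 and was not called.

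Glucose and insulin response genes fell in 10 of 37 cases, where 5.08% of all genes fell, and rose in 0, with a median difference of -0.53. Pck1, the entry enzyme of gluconeogenesis, was at 431, 371 and 992 RPKM in HF+CR livers and 1679, 1853 and 1442 RPKM in LF+CR livers (difference -1.61 ± 0.34, adjusted p = 0.00795). G6pc, which releases free glucose, was at 108, 32.3 and 39.5 RPKM in HF+CR livers and 78.0, 92.8 and 39.6 RPKM in LF+CR livers and was not called (adjusted p = 0.619). Khk, fructokinase, was at 289, 356 and 227 RPKM in HF+CR livers and 642, 476 and 705 RPKM in LF+CR livers (difference -1.06 ± 0.23, adjusted p = 0.0091). Ppp1r3g, a glycogen-targeting phosphatase subunit, was at 0, 0.128 and 2.64 RPKM in HF+CR livers and 8.05, 12.95 and 6.82 RPKM in LF+CR livers (difference -2.64 ± 0.37, adjusted p = 0.000598). Without the pancreas-carrying libraries 1 member was called, and 5 in the 6 libraries alone.

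**Figure D5:**
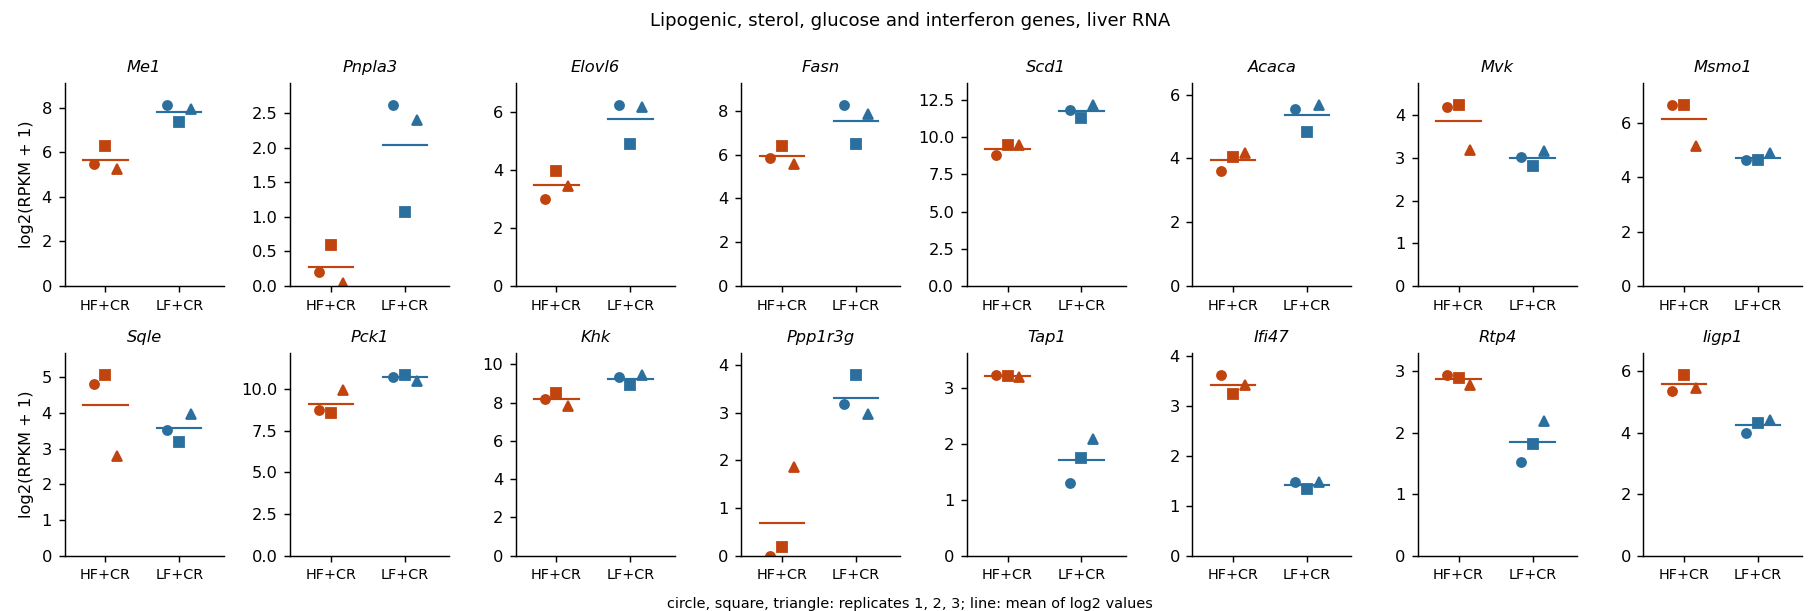
RPKM on the log2(RPKM + 1) scale of 6 lipogenic, 3 sterol, 3 glucose-related and 4 interferon-induced genes in each HF+CR library (left, red) and LF+CR library (right, blue), with the mean of the log2 values as a line. The groups overlap in Sqle only; lipogenic and glucose genes are lower and interferon genes higher in HF+CR livers.

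Genes of fatty acid oxidation were mixed: 5 of 47 rose and 4 fell, where 4.7% of all genes rose and 5.08% fell, with a median difference of 0.00; 0 rose and 2 fell without the pancreas-carrying libraries. Acot3, a peroxisomal thioesterase also counted as female-biased, was at 1.16, 4.74 and 2.77 RPKM in HF+CR livers and 47.0, 61.2 and 59.9 RPKM in LF+CR livers, a difference of -3.97 ± 0.46 (adjusted p = 0.000144). Fabp1, the liver fatty acid-binding protein, was at 23588, 25421 and 15726 RPKM in HF+CR livers and 8630.05, 11482 and 12091 RPKM in LF+CR livers (difference 0.99 ± 0.22, adjusted p = 0.0103). Its call was lost without HF+CR replicate 1 (adjusted p = 0.0528) or LF+CR replicate 1 (0.0556). Cpt1a, the gate of mitochondrial oxidation, was at 129 to 197 RPKM in HF+CR livers and 79.3 to 144 RPKM in LF+CR livers (adjusted p = 0.236). Cyp4a14, a PPAR alpha target, was at 237 to 333 RPKM in HF+CR livers and 453 to 1075 RPKM in LF+CR livers, a difference of -1.39 ± 0.44 that missed the threshold (adjusted p = 0.0594) and passed it without LF+CR replicate 3 (0.0296), LF replicate 2 (0.0465) or LF+Ex replicate 2 (0.0388).

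Of 29 lipid droplet and uptake genes 2 rose and 0 fell, where 4.7% of all genes rose and 5.08% fell. Slc27a2, a fatty acid transport protein and acyl-CoA synthetase, was at 629, 599 and 642 RPKM in HF+CR livers and 352, 393 and 386 RPKM in LF+CR livers (difference 0.72 ± 0.11, adjusted p = 0.00117). Fitm1, a protein of lipid droplet formation, was at 61.0, 56.7 and 16.7 RPKM in HF+CR livers and 9.52, 13.9 and 16.6 RPKM in LF+CR livers (adjusted p = 0.0416), a call lost without any of the 6 libraries except HF+CR replicate 3: 0.173 and 0.135 without HF+CR replicates 1 and 2, and 0.165, 0.0922 and 0.052 without LF+CR replicates 1, 2 and 3. It was at 0.0524 to 0.0544 without any HF or HF+Ex library or LF+Ex replicate 1. Cidec, a droplet fusion protein that marks fatty liver, was at 1.15 and 0.88 RPKM in HF+CR replicates 1 and 2, at 18.1 RPKM in replicate 3 and at 1.39 to 1.62 RPKM in LF+CR livers. Plin4, a droplet coat protein, was at 1.29 to 3.09 RPKM in HF+CR livers and 2.53 to 4.24 RPKM in LF+CR livers. Without CR, Cidec was at 53.1 to 84.4 RPKM in HF livers and 8.92 to 38.5 RPKM in LF livers; the difference between livers with and without CR was not tested here.

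In bile acid synthesis and transport, 6 of 31 genes rose and 3 fell, where 4.7% of all genes rose and 5.08% fell. Without the pancreas-carrying libraries 4 rose and 1 fell. Cyp8b1, the 12-alpha-hydroxylase that makes cholic acid, was at 228, 118 and 96.5 RPKM in HF+CR livers. It was at 19.1, 15.8 and 30.2 RPKM in LF+CR livers (difference 2.66 ± 0.48, adjusted p = 0.00308). The Cyp8b1 call was lost without the pancreas-carrying libraries (adjusted p = 0.0914). Hsd3b7, an early enzyme of the pathway, was at 379, 280.3 and 209 RPKM in HF+CR livers and 97.1, 74.9 and 98.4 RPKM in LF+CR livers (difference 1.64 ± 0.21, adjusted p = 0.000269). Cyp7a1, the rate-limiting enzyme, was at 42.1, 12.3 and 24.9 RPKM in HF+CR livers and 4.59, 26.3 and 18.02 RPKM in LF+CR livers, overlapping and not called (adjusted p = 0.339). The organic anion transporter Slco1a4 fell, with 3.09, 7.83 and 7.01 RPKM in HF+CR livers and 32.5, 34.4 and 30.4 RPKM in LF+CR livers (difference -2.34 ± 0.29, adjusted p = 0.000232), opposite to Slco1a1 above. Among 64 xenobiotic metabolism genes, 9 rose and 19 fell, or 2 and 8 without the pancreas-carrying libraries. Fmo2 and Fmo1, flavin monooxygenases, fell by 3.37 ± 0.31 and 1.06 ± 0.12. The carboxylesterase Ces3a rose, at 835, 758 and 409.9 RPKM in HF+CR livers and 11.4, 55.9 and 67.6 RPKM in LF+CR livers (difference 4.13 ± 0.47, adjusted p = 0.000144).

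Amino acid catabolism showed 4 of 52 genes higher and 10 lower, where 4.7% of all genes rose and 5.08% fell; 0 were higher and 2 lower without the pancreas-carrying libraries. Tat, tyrosine aminotransferase and a glucocorticoid and glucagon target, was at 418, 270.2 and 387 RPKM in HF+CR livers and 1432, 1168 and 890.1 RPKM in LF+CR livers (difference -1.69 ± 0.22, adjusted p = 0.000338). Arg1, the arginase of the urea cycle, fell by 0.82 ± 0.16 (adjusted p = 0.00521). Bhmt, betaine-homocysteine methyltransferase, rose, at 1661, 1120.9 and 809 RPKM in HF+CR livers and 96.0, 216 and 224 RPKM in LF+CR livers (difference 2.77 ± 0.47, adjusted p = 0.0022). Every HF+CR library lay outside the LF+CR range for Tat, Arg1 and Bhmt. Of these 3, Tat was also called without the pancreas-carrying libraries, and Arg1 and Bhmt were not (adjusted p = 0.112 and 0.0926).

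Interferon-induced genes were higher in HF+CR livers: 14 of 44 rose and 0 fell, where 4.7% of all genes rose, with a median difference of 0.58. The median diet difference of the same genes was 0.55 with neither treatment and 0.86 under exercise. Tap1, the peptide transporter of class I antigen presentation, was at 8.43, 8.26 and 8.12 RPKM in HF+CR livers and 1.45, 2.34 and 3.23 RPKM in LF+CR livers (difference 1.51 ± 0.18, adjusted p = 0.000166). Ifi47, an interferon-induced GTPase, was at 11.4, 8.45 and 9.69 RPKM in HF+CR livers and 1.52 to 1.77 RPKM in LF+CR livers (difference 2.01 ± 0.33, adjusted p = 0.00156). Iigp1, a related GTPase, and Rtp4, an interferon-induced chaperone, rose by 1.33 ± 0.23 and 1.03 ± 0.17. Over the whole list, the mean log2(RPKM + 1) lay -0.152, -0.106 and 0.32 from that of the 18 libraries in HF+CR livers and -0.817, -0.695 and -0.25 in LF+CR livers, highest in HF+CR replicate 3, whose lymphocyte marker sum was 36.2 RPKM. Class II antigen presentation genes, which mark antigen-presenting cells, had 1 of 7 called higher and a median difference of 1.17. Of all genes tested, 31.3% did not overlap between the groups and 26.3% had an unadjusted p under 0.05, against all 7 of these genes. Their mean log2 level lay -0.308, -0.191 and 0.814 from that of the 18 libraries in HF+CR livers and -0.901, -0.8 and -0.718 in LF+CR livers. The gene called was H2-DMa, a peptide-loading chaperone, at 1.91, 1.85 and 4.16 RPKM in HF+CR livers and 0.428, 0.823 and 0.804 RPKM in LF+CR livers (adjusted p = 0.0314). That call was lost without HF+CR replicate 1 (0.054) or 3 (0.0963) or LF+CR replicate 1 (0.124), 2 (0.0658) or 3 (0.0526). Of 16 macrophage markers tested 0 were called by limma, with a median difference of 0.62. Their median diet difference was 0.38 with neither treatment and 0.90 under exercise. An unadjusted p under 0.05 was found in 5 of the 16, where 26.3% of all genes had one. Summed macrophage markers were 292, 251 and 492 RPKM in HF+CR livers and 165, 205 and 228 RPKM in LF+CR livers. Their part in the interferon and class II genes was not tested. Without the pancreas-carrying libraries 2 interferon-induced genes were called higher, and 12 without the libraries high for bile duct markers.

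Acute-phase and complement genes rose in 12 of 41 cases and fell in 2, where 4.7% of all genes rose and 5.08% fell, or in 6 and 1 without the pancreas-carrying libraries. Beside the complement components above, Saa1, a serum amyloid of the acute phase, was at 58.7, 42.8 and 153 RPKM in HF+CR livers and 5.45, 5.53 and 6.12 RPKM in LF+CR livers, a difference of 3.46 ± 0.60 (adjusted p = 0.00234). It shares much sequence with Saa2. The highest value was again in HF+CR replicate 3. Among 27 apolipoprotein and lipoprotein genes, 3 rose and 3 fell. Without the pancreas-carrying libraries limma called 0 of them, with 7 at an unadjusted p under 0.05, as were 1508 of all 10356 genes. Apoa1, the main protein of high-density lipoprotein, was at 11696, 11926 and 13319.8 RPKM in HF+CR livers and 5638, 6371 and 7334 RPKM in LF+CR livers (difference 0.94 ± 0.18, adjusted p = 0.0051). Pltp, phospholipid transfer protein, was at 20.8, 30.8 and 19.7 RPKM in HF+CR livers and 67.8, 69.1 and 107 RPKM in LF+CR livers (difference -1.73 ± 0.30, adjusted p = 0.00256).

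Among subunits of the respiratory chain, the calls were all of lower genes. Of 76 nuclear-encoded genes 22 fell, where 5.08% of all genes fell, and 0 rose, with a median difference of -0.35. Ndufa12, a complex I subunit, was at 128, 146 and 144 RPKM in HF+CR livers and 239.5, 221 and 185 RPKM in LF+CR livers (difference -0.62 ± 0.11, adjusted p = 0.00222). Sdhd, a complex II subunit, fell by 0.60 ± 0.11 (adjusted p = 0.00324). Cytosolic ribosomal proteins had 9 of 76 lower and 0 higher, with a median of -0.37, and Rpl23 was at 232, 268 and 309 RPKM in HF+CR livers and 509.6, 404 and 344 RPKM in LF+CR livers (difference -0.63 ± 0.15, adjusted p = 0.0149, or 0.0838 without HF+CR replicate 1 and 0.0814 without LF+CR replicate 1). LF+CR replicate 1, the library with the highest pancreatic sum (2781 RPKM), was the highest for Ndufa12 and Rpl23, and the part of pancreatic RNA in these groups was not tested. Without the pancreas-carrying libraries limma called 0 genes of either group, while 16 respiratory and 3 ribosomal genes had an unadjusted p under 0.05. In the 6 libraries alone it called 1 respiratory and 0 ribosomal genes, with 40 and 24 at an unadjusted p under 0.05. Of all 10356 genes, 1508 had such a p without the pancreas-carrying libraries and 2500 in the 6 libraries alone.

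Calls were below the 9.78% of all genes in the glutathione, endoplasmic reticulum stress, cell cycle, clock, chromatin modifier and heat-shock groups. Glutathione and NRF2 target genes had 1 of 38 higher and 2 lower, endoplasmic reticulum stress genes 1 of 28 lower and cell cycle genes 1 of 16 higher. Without the pancreas-carrying libraries limma called 0 glutathione, stress or cell cycle genes. An unadjusted p under 0.05 was then reached by 4, 6 and 3 of them in that order, and by 1508 of all 10356 genes. Cry1, a repressor of the circadian clock, was the 1 of 19 clock genes called. It was at 0.738 to 1.31 RPKM in HF+CR livers and 2.42 to 3.01 RPKM in LF+CR livers (difference -0.89 ± 0.19, adjusted p = 0.00989). The Cry1 call was lost without the pancreas-carrying libraries (adjusted p = 0.0902). Per2 was not called (adjusted p = 0.118). Kdm5b, a histone H3 lysine 4 demethylase, was the 1 of 58 chromatin modifiers called, at 4.19, 3.61 and 3.34 RPKM in HF+CR livers and 1.58, 1.86 and 1.85 RPKM in LF+CR livers (difference 0.77 ± 0.11, adjusted p = 0.000614). Alas2, the erythroid heme synthesis enzyme, was at 52.2, 45.4 and 32.0 RPKM in HF+CR livers and 7.205, 11.6 and 10.4 RPKM in LF+CR livers (difference 2.04 ± 0.24, adjusted p = 0.000144), the 1 called of 4 erythroid markers tested, whose sum was 368 to 805 RPKM in HF+CR livers and 717 to 886 RPKM in LF+CR livers. Adrb3, the beta-3 adrenergic receptor, was the 1 called of 3 adipocyte markers tested. It was at 3.63, 2.06 and 2.47 RPKM in HF+CR livers and 0.177, 0.326 and 0.434 RPKM in LF+CR livers (difference 1.49 ± 0.18, adjusted p = 0.000225). Rnd2, a small GTPase, fell by 2.87 ± 0.24 (adjusted p = 7.63e-06), with 3.26 to 5.70 RPKM in HF+CR livers and 25.8 to 54.3 RPKM in LF+CR livers. Lpgat1, a lysophospholipid acyltransferase, was listed at 0 in all 3 HF+CR libraries and in 9 of the 18 libraries, and at 20.6, 26.7 and 18.6 RPKM in LF+CR livers. Of 20 heat-shock protein genes 0 were called by limma and 3 had an unadjusted p under 0.05, where 26.3% of all genes had one. Hspa5, the endoplasmic reticulum chaperone, was at 172 to 252 RPKM in HF+CR livers and 188 to 233 RPKM in LF+CR livers.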

How the data were processed

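Polyadenylated liver RNA was sequenced in 18 libraries of 6 groups, with 3 libraries per group. The deposited RPKM values, 1 per RefSeq transcript, came from TopHat 1.4.1 and Cufflinks 1.3.0 on mm10, per the submitters' processing notes; the annotation version is not given in the sources used here, and no counts are in the files used. Livers were flash frozen, and libraries were made from poly(A)-enriched Trizol RNA, per the labels' protocols. RPKM divide by mapped reads, so a few very abundant transcripts can shift all others.

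Of 30582 transcript rows, 30003 were named through RefSeq and 180 through GENCODE, and 399 kept their identifier. Each of 23521 genes was represented by its highest row, and 4221 had more than 1. The 10356 genes that reached 1 RPKM in 3 or more libraries were kept. limma 3.58.1 (R 4.3.3) was fitted to log2(RPKM + 1) with 1 mean per group over all 18 libraries (12 residual degrees of freedom, moderation with a mean trend), two-sided, with Benjamini-Hochberg adjustment over all genes kept. The other 4 groups add only to the estimate of the spread; an exact permutation test of 3 against 3 cannot go below p = 0.1. Depth was estimated from the spacing of low RPKM values, searched between 15000000 and 45000000 fragments. Promoter windows came from RefSeq (GRCm38.p6). Python 3.11.15, pandas 2.3.3 and matplotlib 3.10.9 were used.

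Named genes were up to 14 with the largest difference in each direction among called genes that did not overlap and had a mean of at least 2 RPKM in 1 group, up to 4 called members per gene list by adjusted p, a set of 37 genes named whatever their result, and up to 8 genes for each test of differing diet effects. The genes, lists and tests were chosen with earlier results of these data known; lists are described by counts and medians, without a set test. Alternatives changed the pseudocount, filter, scaling, moderation, transcript choice, replicate block and libraries; leaving out the libraries high for pancreatic or bile duct markers was added after the data were seen. The main fit did not pair libraries by replicate number, and a fit with a replicate block is given below. Results of some genes are not reported here.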

Additional observations from a re-analysis of the deposited data

Results flagged for a closer look

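The diet difference under CR was set against that with neither treatment and that under exercise, and 12 genes named for those tests passed limma's test of the difference of differences. Values are (HF+CR minus LF+CR) minus the other diet difference on the log2(RPKM + 1) scale, and each kept its sign and its call in every alternative that gave a value. Cux2 was tested only because it was high in LF+CR livers.

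Against HF minus LF, C8a gave 4.79, Cyp4a12a 5.46, Clec2h 2.94 and Fbxo21 1.37, and Cyp2b13 gave -7.90, Cux2 -2.64, Slc22a26 -2.61 and Cyp2c39 -2.45. Cyp2c39, a P450 of the arachidonic acid-metabolising Cyp2c family, was at 0.172, 0.281 and 0.714 RPKM in HF+CR livers and 5.31, 4.38 and 4.72 RPKM in LF+CR livers, with 1.22 to 3.33 RPKM in HF livers and 1.02 to 1.78 RPKM in LF livers.

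Against HF+Ex minus LF+Ex, C8a gave 5.52, C6 4.74 and F11 2.31, and Cyp2b13 gave -8.25, Cyp2a22 -6.06, Slc22a27 -5.34, Slc22a26 -3.86 and Cux2 -2.87. Cyp2a22, a P450 of the Cyp2a family, was at 0.507, 1.03 and 1.18 RPKM in HF+CR livers and 14.5, 15.9 and 16.3 RPKM in LF+CR livers, whereas it was at 18.7 to 23.8 RPKM in HF+Ex livers and 0.825 to 5.15 RPKM in LF+Ex livers. Slc22a27 was at 0.267, 1.89 and 1.68 RPKM in HF+CR livers and 20.8, 18.3 and 15.1 RPKM in LF+CR livers, and at 3.82 to 6.57 RPKM in HF+Ex livers and 0.0718 to 0.708 RPKM in LF+Ex livers. All 3 of these genes belong to families with near-identical members, so single values are uncertain.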

How the results depend on the processing

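The 1013 called genes kept their sign in every alternative that tested them, except 1 gene when transcript rows were summed. The count was 810 to 1279 with another pseudocount, filter, scaling, moderation or transcript choice, 380 (192 higher, 188 lower) in the 6 libraries alone, 430 to 1231 when 1 library was left out, 131 (74 higher, 57 lower) without the pancreas-carrying libraries and 1397 (599 higher, 798 lower) without the libraries high for bile duct markers. The 106 genes whose diet difference differed from HF minus LF became 45 to 211 with 1 library left out, 37 without the pancreas-carrying libraries and 270 without those high for bile duct markers; the 248 genes against exercise became 131 to 567, 64 and 760. Neither of these tests can be made from the 6 libraries alone. A replicate block gave 963, 83 and 216 calls in the 3 tests. Same-numbered HF+CR and LF+CR libraries deviated together with r of 0.189, 0.125 and 0.045, against -0.161 to 0.048 for the other pairs. Not every library correlated best with its own number, and whether libraries of the same number share an effect was not tested. Where the counts moved, the cause was not tested, although fewer libraries leave fewer degrees of freedom.

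Of the 117 named genes, those that changed sign were not called: Stat5b was at 0.002 with rows summed, 0.096 without the pancreas-carrying libraries and -0.092 to 0.104 with 1 library left out, positive without LF+CR replicate 1 or HF+CR replicate 2 (0.050); Cyp7a1 at -0.295 without the pancreas-carrying libraries; Insig1 at -0.267 to 0.052 and Cidec at -0.311 to 1.360 with 1 library left out, changing sign without HF+CR replicate 3, with or without LF replicate 2; and Hspa5 at -0.050 to 0.225, negative without LF+CR replicate 3 (-0.029), HF+CR replicate 2 or HF+CR replicate 3 (-0.019). RPKM without counts and unknown animal numbers limit these results. Sex is not in the labels, and the Y-linked and Xist values above cover only the 6 CR libraries.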

Other observations

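Glycolytic genes and the pyruvate dehydrogenase complex were lower in HF+CR livers: 12 of 26 tested members fell and 0 rose, with a median difference of -0.47, against 0.01 between HF and LF livers and -0.02 between HF+Ex and LF+Ex livers. Of all genes tested, 5.08% fell. The list was chosen after the values were seen, so this is a description. Gpi1, glucose-6-phosphate isomerase, was at 42.5, 46.0 and 67.6 RPKM in HF+CR livers and 165, 107 and 153 RPKM in LF+CR livers (difference -1.43 ± 0.18, adjusted p = 0.000274). Eno1, an enolase, was at 76.9, 94.7 and 117 RPKM in HF+CR livers and 221, 173 and 209 RPKM in LF+CR livers (difference -1.07 ± 0.15). Dlat, the acetyltransferase of pyruvate dehydrogenase, and Pdk1, its inhibitory kinase, fell together, by 1.01 ± 0.16 and 1.39 ± 0.24. Ldha, lactate dehydrogenase, was at 645 to 754 RPKM in HF+CR livers and 416 to 695 RPKM in LF+CR livers and was not called (adjusted p = 0.28). The count of lower genes was 4 without the pancreas-carrying libraries and 6 in the 6 libraries alone.

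Coagulation and protease inhibitor genes, also listed after the values were seen, had 7 of 29 members higher and 1 lower, where 4.7% of all genes rose and 5.08% fell. Serpinf2, the plasmin inhibitor alpha-2-antiplasmin, was at 445, 387 and 392 RPKM in HF+CR livers and 222, 193 and 221 RPKM in LF+CR livers (difference 0.94 ± 0.11, adjusted p = 0.000166). Mug1, a murinoglobulin, was at 1065, 835 and 557 RPKM in HF+CR livers and 163, 298 and 257 RPKM in LF+CR livers (difference 1.77 ± 0.22). Serpinc1, antithrombin, was the 1 that fell, at 784 to 869 RPKM in HF+CR livers and 1132 to 1244 RPKM in LF+CR livers. Constitutive proteasome subunits, a list set beside the immunoproteasome genes, had 1 of 31 higher, Psmd14, and 0 lower. Of 24 iron and zinc genes tested, 2 rose and 3 fell, where 4.7% of all genes rose and 5.08% fell. Without the pancreas-carrying libraries limma called 0 of them, with 6 at an unadjusted p under 0.05, as were 1508 of all 10356 genes. Hamp2, a hepcidin paralog counted among the acute-phase genes, was at 439, 714 and 435 RPKM in HF+CR livers and 3279.9, 2447 and 4589.6 RPKM in LF+CR livers (difference -2.69 ± 0.43, adjusted p = 0.00141); it was named after its values were seen.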
